A study of Mus musculus with 24 samples.

Results

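Icam1, Ptpn13, Tnfaip2, Mmp9 and Jag1 are genes of invasion and metastasis whose mRNA served as a readout of NF-κB signaling in the same work. The primers listed there cover JAG1 for human cells only, and the other genes for mouse as well. All 5 genes were taken by name from the 21755 protein-coding genes that GENCODE vM21 places on chromosomes 1 to 19 and X. The mark examined at them was acetylation of lysine 9 on histone H3 (H3K9ac), mapped by ChIPmentation, in which a transposase tags the immunoprecipitated chromatin on the beads. The cells were 4T1 cells, a mouse mammary carcinoma line, grown as 3D spheroids and collected on day 5. There were 12 H3K9ac libraries in 4 groups of 3, namely scramble (a non-targeting guide), CPT1a knockout, KAT2a knockout, and CPT1a knockout supplemented with 5 mM acetate. The scramble, CPT1a knockout and KAT2a knockout spheroids were grown with 75 µM palmitate, and the labels do not say whether the acetate medium held palmitate as well. Every group, the scramble cells included, came from 4T1 cells with a doxycycline-inducible Cas9 and a guide delivered by lentivirus. The lines were selected with puromycin, neither the labels nor the methods say whether single clones were taken, and the labels do not name the guide used. Nothing in the labels says that replicates were separate cultures, so each p-value below measures only the spread between these libraries.

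NF-κB is a family of transcription factors, among them p65 (Rela), c-Rel and RelB, that wait in the cytoplasm bound to inhibitors of the IκB class and enter the nucleus after signals such as TNF. There they bind κB sites in the promoters and enhancers of adhesion molecules, cytokines, survival genes and their own inhibitors, and they recruit acetyltransferases. H3K9ac lies on the nucleosomes around active promoters and enhancers, and KAT2a (GCN5) is one of the enzymes that place it. Icam1 is a surface receptor that binds leukocyte integrins, and Mmp9 is a secreted protease that degrades basement membrane collagen. Ptpn13 is a large cytoplasmic tyrosine phosphatase with several PDZ domains. Tnfaip2 is a TNF-induced protein related to the exocyst subunits, and Jag1 is a ligand of the Notch receptors.

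The promoter sequences show how these genes differ before any peak is considered. RefSeq promoters were found for 4 of the 5 genes, and the 250 bases before each RefSeq TSS are printed below from GRCm38, 5′ to 3′ on the strand of the gene. The promoter calls below refer to GENCODE TSSs, not to these starts. Capitals mark matches on either strand to the κB consensus, to a relaxed κB pattern (GGNNNTTCC) or to the GC box (GGGCGG). The RefSeq TSS was the first GENCODE TSS for Ptpn13, lay 45 bp before it for Icam1 (-45), and lay 124 and 192 bp inside the GENCODE transcript for Jag1 and Tnfaip2.
Icam1 (chr9:21015690-21015939, plus strand): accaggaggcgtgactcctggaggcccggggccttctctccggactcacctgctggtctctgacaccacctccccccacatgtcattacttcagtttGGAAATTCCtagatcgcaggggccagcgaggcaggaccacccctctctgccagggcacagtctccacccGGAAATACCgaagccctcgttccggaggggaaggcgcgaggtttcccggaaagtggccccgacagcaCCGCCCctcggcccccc
Ptpn13 (chr5:103424942-103425191, plus strand): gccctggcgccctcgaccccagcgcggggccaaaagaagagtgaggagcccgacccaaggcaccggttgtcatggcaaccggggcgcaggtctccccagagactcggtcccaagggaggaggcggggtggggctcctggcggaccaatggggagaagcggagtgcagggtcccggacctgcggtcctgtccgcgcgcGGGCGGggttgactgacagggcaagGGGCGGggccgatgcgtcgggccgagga
Tnfaip2 (chr12:111442411-111442660, plus strand): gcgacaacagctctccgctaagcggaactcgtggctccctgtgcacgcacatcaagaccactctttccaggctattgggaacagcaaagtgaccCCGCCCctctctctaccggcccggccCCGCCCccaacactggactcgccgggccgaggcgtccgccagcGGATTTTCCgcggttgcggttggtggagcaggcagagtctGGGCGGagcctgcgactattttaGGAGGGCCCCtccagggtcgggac
Jag1 (chr2:137116521-137116770, minus strand): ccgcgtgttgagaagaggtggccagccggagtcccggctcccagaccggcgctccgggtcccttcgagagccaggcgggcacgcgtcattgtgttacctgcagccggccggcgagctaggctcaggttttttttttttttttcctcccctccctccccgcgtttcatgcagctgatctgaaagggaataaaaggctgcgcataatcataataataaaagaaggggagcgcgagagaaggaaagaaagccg

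The relaxed κB pattern stood at 2 places in Icam1, from 153 to 145 and from 84 to 76 bases before the TSS, and the first of these reads as the pattern on both strands. Tnfaip2 held it from 87 to 79 bases before the TSS and held a match to the κB consensus from 24 to 15. Neither pattern was found in these windows of Ptpn13 and Jag1. Over all 32851 promoter windows of this length in the table, 15.7% held the relaxed pattern and 7.25% the consensus. The GC box stood in Icam1 (1 match), Ptpn13 (2) and Tnfaip2 (3), and in 32.7% of all windows. The AP-1 heptamer (TGANTCA, 6.75% of windows) and the TATA box (TATAAA, 12.4%) were in none of the 4 windows. GC content was 65.2% for Icam1, 72.4% for Ptpn13, 65.6% for Tnfaip2 and 57.2% for Jag1, against a median of 52.4%. A match describes letters only.

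The libraries differed in depth, which touches each value below. A library held 16201 to 34330 peaks, and the scramble libraries held the most (32250 ± 2734, SD, n = 3, against means of 20219 to 23525). The calling depth, the background pileup that each peak's fold enrichment and p imply, was 1.87 to 2.52 in scramble and went down to 0.553 in CPT1a knockout 3 and 0.660 in acetate 2. Scramble peaks were also shorter, with median widths of 585 to 686 bp against 816 to 1147 bp. A list holds only peaks past a q of 0.01, so a missing peak gives no level. Of 8 epithelial markers 7 had a promoter peak in all 12 libraries, Krt14 being the exception, whereas none of 6 immune and 4 endothelial markers did. Cd68 (2 libraries) was the only one of those 10 with any call, and of 5 fibroblast markers Pdgfra was called in 12 libraries and Col1a1 in 11. Each library pools the cells of many spheroids, so fewer cells with the mark and less mark per cell cannot be told apart.

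Icam1 had no promoter peak in any library. Icam1 (ENSMUSG00000037405.8, chr9:21015985-21028817, plus strand) has 1 annotated TSS, and no peak in any of the 12 lists touched the window of 1 kb on either side of it or the gene body. Its nearest peak lay upstream in every library, at 10092 to 12311 bp. An absent promoter peak was common, since 9811 of the 21755 genes (45.1%) had none in any library. The Icam1 window was GC-rich at 58.7%, above the median of 53.8% for genes called in all 12 libraries and of 46.7% for genes called in none.

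The acetylated regions around Icam1 that all 12 libraries shared lay at the promoters of other genes. Overlapping peaks of the 12 lists were merged into regions, and 16 of these lay within 50 kb of Icam1, with 4 present in all 12 libraries. Those 4 covered the promoters of S1pr2, a sphingosine-1-phosphate receptor, of Mrpl4, a mitochondrial ribosomal protein, of Icam5, a neuronal adhesion receptor, and of Fdx1l, a mitochondrial ferredoxin that shares its region with Gm49373. Icam4, an erythroid adhesion receptor whose gene starts just past the end of Icam1, lay in a weak region called in 8 libraries, of which 1 was scramble, at fold enrichments of 4.07 to 7.45. A second weak region, 358 bp from the Icam4 TSS, was called in 11 libraries, and with both regions Icam4 had a promoter peak in 10 libraries, all 3 scramble libraries among them. At S1pr2 scramble 1 stood apart, with a fold enrichment of 2.80 against 11.9 to 30.3 in the other libraries. The peak length there was not short in scramble 1, at 5519 bp beside 5150 and 5611 bp in scramble 2 and 3.

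The Mrpl4 and Icam5 regions separated groups in opposite directions. Mrpl4 ranked higher than scramble without overlap in KAT2a knockout, by 11.4 percentile points, and with acetate, by 8.37 (exact permutation p = 0.1 in each, adjusted p = 0.337 and 0.310 over all regions), and the acetate difference was 4.75 without acetate 3. The rank of the Icam5 region, the percentile of fold enrichment among the 12098 regions present in all 12 libraries of that library, was 10.8, 13.6 and 13.0 in scramble and 10.2, 8.47 and 6.56 in CPT1a knockout. The same rank was 4.60, 4.22 and 2.95 under acetate and 4.19, 3.83 and 6.26 in KAT2a knockout. The scramble values thus lay above all 9 others, by 6.76 percentile points (exact permutation test, two-sided, p = 0.00455, adjusted p = 0.0464 over all regions), and the acetate values lay below those of CPT1a knockout. As a promoter rank the difference between scramble and the other 9 passed limma (adjusted p = 0.0333), a call that was lost without any 1 of 6 libraries, among them all 3 scramble libraries (highest adjusted p = 0.117).

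Mmp9 (ENSMUSG00000017737.2, chr2:164940780-164955850, plus strand) had no peak at its first TSS in any library either. The nearest peak to that TSS lay at 6926 to 28098 bp. Of its 4 annotated TSSs, those inside the gene lay close to short peaks in CPT1a knockout 1 and 2 and in acetate 1 and 3. The strongest of these peaks lay from 7290 to 7952 bp into the gene, and CPT1a knockout 2 and acetate 3 each held a second one before it, from 6926 bp. The fold enrichments of the strongest peak were 3.96 and 5.09 in CPT1a knockout and 5.75 and 5.24 with acetate, and the summed widths of the peaks were 200 to 732 bp. None of the scramble or KAT2a knockout libraries held a peak there, and the 4 calls were in libraries other than the 2 of lowest depth. When all lists were set to the same calling depth of 0.55, 1 of these 4 calls was left, and none was left when a peak had to cover at least 50% of a window of 500 bp on either side of a TSS.

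**Figure D1:**
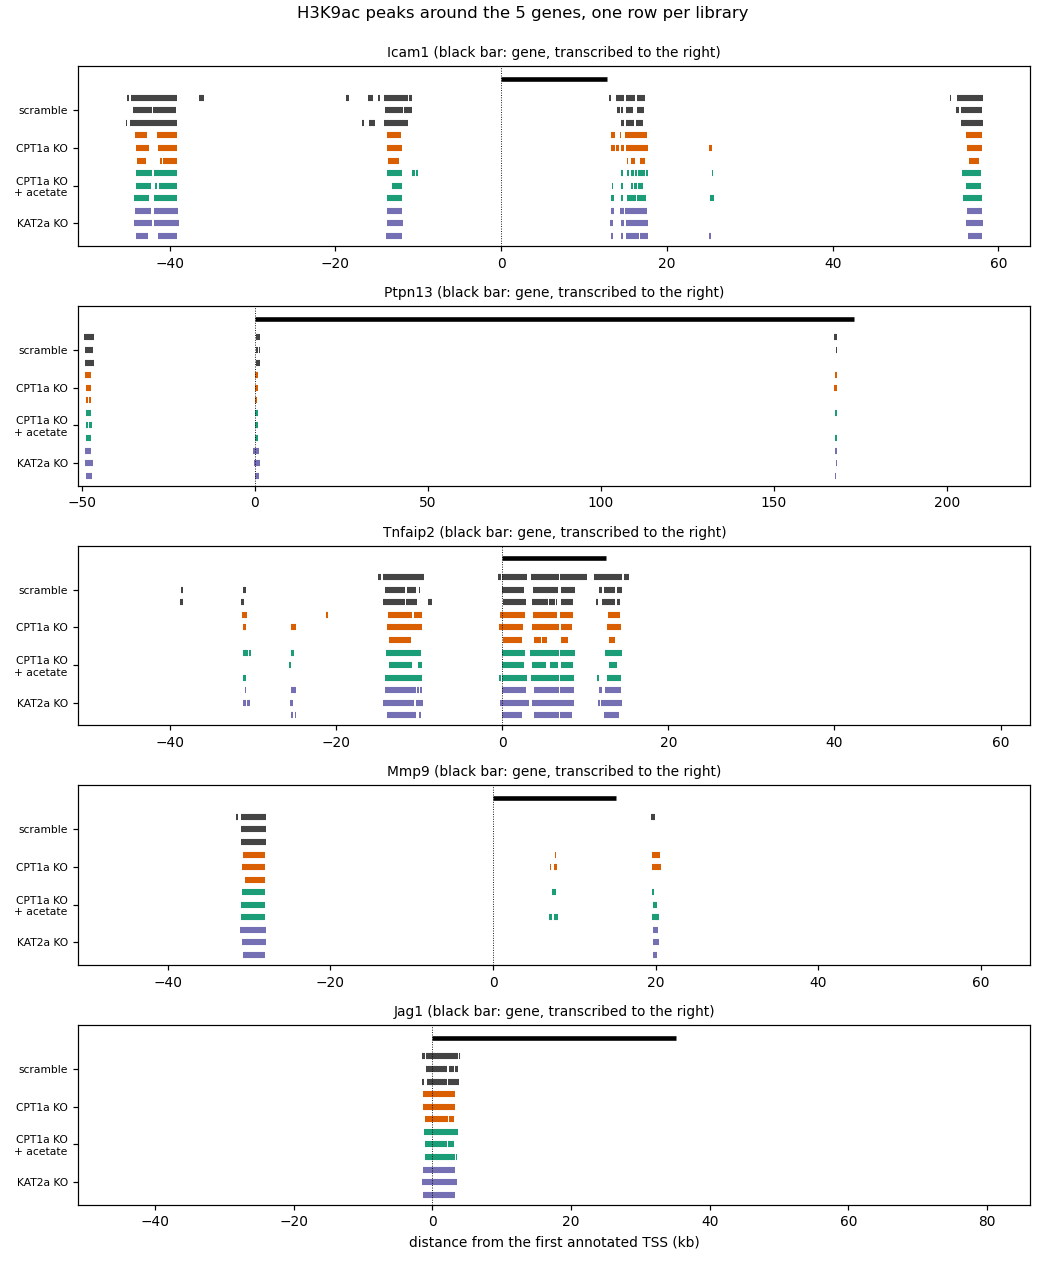
H3K9ac peaks of the 12 libraries (one row each, colored by group, the 3 replicates of a group from top to bottom) within 50 kb of each gene, plotted as distance in kb from the first annotated TSS along the direction of transcription. The TSS of Icam1 and that of Mmp9 (dotted lines) have no peak within 1 kb in any row, whereas Ptpn13, Tnfaip2 and Jag1 have one within 1 kb in all 12.

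The region next to Mmp9 held the largest difference in rank among the 12 shared regions of the 5 loci. It covers the promoter of Zfp335, a zinc-finger transcriptional regulator, from 31.1 to 27.9 kb before Mmp9 (chr2:164909675-164912895), and it was called in all 12 libraries. Its fold enrichment was 11.2, 11.3 and 14.7 in scramble, 35.1, 44.6 and 31.8 in CPT1a knockout, 35.3, 30.3 and 31.4 under acetate and 40.4, 40.1 and 34.7 in KAT2a knockout. Scramble was low, and the other 9 libraries did not reach down to it. As the promoter rank of Zfp335 (the percentile among the 10777 genes that every library called) the group means were 20.7 ± 9.41 in scramble, 87.4 ± 10.3 in CPT1a knockout, 78.3 ± 2.98 under acetate and 79.9 ± 3.65 in KAT2a knockout (SD, 3 libraries per group).

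Zfp335 rose against scramble in each group by limma on normal scores of the ranks, with adjusted p = 0.00180 in CPT1a knockout, 0.01003 under acetate and 0.0140 in KAT2a knockout. With the GC trend removed the adjusted p was 0.00662, 0.0349 and 0.0267. Leaving out 1 library ended a call in 1 case, KAT2a knockout against scramble without scramble 1 (limma adjusted p = 0.0571). Between acetate and CPT1a knockout the difference was -9.14 percentile points (limma adjusted p = 0.663), with a 95% interval of -1.12 to 0.14 on the normal score scale. The second neighbor of Mmp9, Slc12a5, a neuronal chloride transporter, lay in a weak region in 9 libraries, of which 1 was scramble, with fold enrichments of 4.04 to 7.45.

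Ptpn13 (ENSMUSG00000034573.14, chr5:103425192-103598303, plus strand) carried a promoter peak in all 12 libraries, but a weak one. Its fold enrichment was 6.92, 6.97 and 6.73 in scramble, 13.0, 19.2 and 4.87 in CPT1a knockout, 7.06, 8.15 and 13.4 under acetate and 12.7, 18.3 and 17.6 in KAT2a knockout. Its promoter rank was 3.57, 3.55 and 4.52 in scramble, 7.01, 13.3 and 0.636 in CPT1a knockout, 1.03, 3.16 and 9.87 under acetate and 5.37, 13.2 and 20.7 in KAT2a knockout. The rank therefore stayed in the lowest 20.7% of genes throughout. All 3 KAT2a knockout libraries ranked above all 3 scramble libraries, whereas CPT1a knockout and acetate libraries fell on both sides of them, and the lowest rank of all belonged to CPT1a knockout 3, the library of lowest depth. KAT2a knockout exceeded scramble by 9.22 percentile points (exact permutation test, two-sided, p = 0.1, the smallest that 3 against 3 allows, adjusted p = 0.341), and by 5.42 without KAT2a knockout 3. The limma difference was 0.59 on the normal score scale with a 95% interval of -0.19 to 1.36 (adjusted p = 0.370).

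The position of the Ptpn13 peak separated scramble from the other groups, a measure added after the peaks had been seen. The summit of the strongest promoter peak lay 801, 1333 and 1003 bp past the first TSS in scramble. Scramble 2 held a second, weaker promoter peak (fold enrichment 5.54 against 6.97) with its summit at 0.379 kb, inside the range of the other 9 libraries, so its place in this comparison rests on taking the stronger peak. In the other 9 libraries it lay 246 to 426 bp past it, with means of 354 ± 94.4 bp in CPT1a knockout, 333 ± 21.2 bp under acetate and 374 ± 72.4 bp in KAT2a knockout (SD, n = 3). The ranges did not overlap, and scramble exceeded the other 9 by 692 bp (exact permutation test, two-sided, p = 0.00455, adjusted p = 0.0131 over all genes). Such a separation was frequent, since summit positions of scramble did not overlap those of the other 9 for 40.7% of all genes tested. Calling depth was 1.87 to 2.52 in scramble and 0.553 to 1.91 in the other 9 libraries, and its part in the summit position was not tested.

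**Figure D2:**
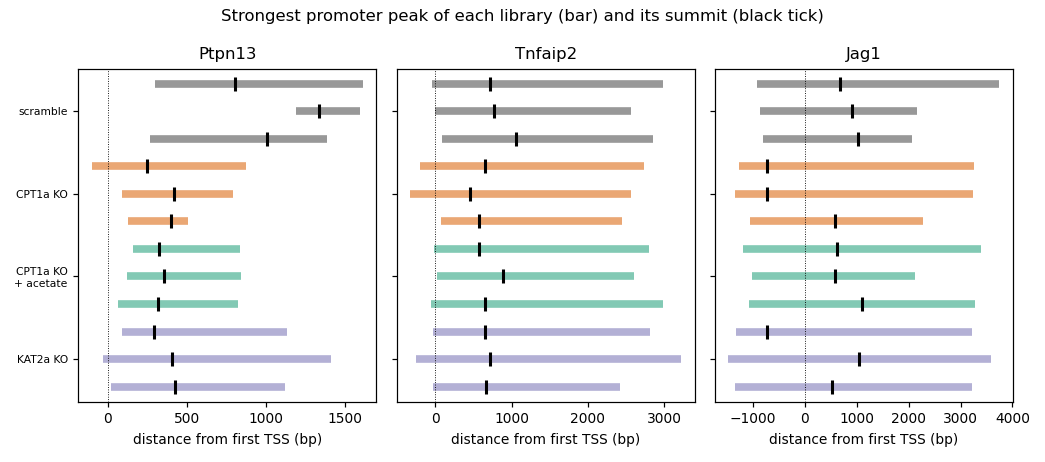
The strongest promoter peak of each library at Ptpn13, Tnfaip2 and Jag1 (colored bars from start to end, in bp from the first TSS) with its summit (black tick), 3 rows per group. For Ptpn13 the 3 scramble summits lie at 801 to 1333 bp and the other 9 at 246 to 426 bp, whereas for Tnfaip2 and Jag1 scramble overlaps at least one other group.

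Ptpn13 promoter peaks were also longer in scramble than in both CPT1a knockout groups. The summed width of the promoter peaks was 1188 ± 110 bp in scramble, 683 ± 297 bp in CPT1a knockout, 719 ± 37.0 bp under acetate and 1407 ± 287 bp in KAT2a knockout (SD, n = 3). CPT1a knockout and acetate lay below scramble without overlap (exact permutation p = 0.1 in each, adjusted p = 0.1505 and 0.181), as did 66% and 54.3% of all genes, and neither separation remained at equal calling depth. A further region, 49.4 to 46.5 kb upstream of Ptpn13 and with no coding TSS closer than that of Ptpn13, was present in all 12 libraries. It ranked 41.3 to 50.5 in scramble, 16.4 to 28.6 in CPT1a knockout, 11.3 to 29.0 under acetate and 19.5 to 49.9 in KAT2a knockout, so that CPT1a knockout and acetate lay below scramble without overlap (exact permutation p = 0.1, adjusted p = 0.304 and 0.310 over all regions). By width, 1 of 3 members was separated in CPT1a knockout against scramble (66.5% of all genes in either direction) and 1 in acetate against scramble (55.4%), and 0 were in KAT2a knockout against scramble (48.7%), acetate against CPT1a knockout (9.94%) and scramble against the other 9 (41.6%). Near the 3′ end of Ptpn13, 167 to 168 kb past the TSS, a weak region was called in 9 of 12 libraries.

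Tnfaip2 (ENSMUSG00000021281.15, chr12:111442469-111455018, plus strand) carried peaks over its promoter, its later TSSs and its 3′ end. A promoter region of 3689 bp, a region of 6829 bp over later annotated TSSs and one of 3379 bp at the 3′ end, each a length merged over the 12 lists, were called in all 12 libraries. The promoter rank was 72.6, 56.6 and 65.6 in scramble, 45.1, 58.6 and 75.6 in CPT1a knockout, 43.4, 89.7 and 74.8 under acetate and 71.3, 73.1 and 75.7 in KAT2a knockout. All groups overlapped scramble. KAT2a knockout differed from scramble by 8.44 percentile points (exact permutation p = 0.2, limma adjusted p = 0.729) and CPT1a knockout by -5.16 (p = 0.7, limma adjusted p = 0.839).

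The regions inside Tnfaip2 ranked far lower than its promoter. The middle region ranked 10.2 to 28.4 in scramble, 4.53 to 12.7 in CPT1a knockout, 16.1 to 34.9 under acetate and 13.8 to 32.2 in KAT2a knockout. Acetate and CPT1a knockout did not overlap there, and acetate was 13.0 percentile points higher (exact permutation p = 0.1, adjusted p = 0.699), or 6.94 higher without acetate 2. Upstream, a region over the promoter of Exoc3l4, an exocyst-related gene, was also called in all 12 libraries, with ranks of 34.4 to 79.3 and no comparison without overlap.

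Jag1 (ENSMUSG00000027276.7, chr2:137081456-137116644, minus strand) had 1 broad promoter region of 5276 bp in all 12 libraries and no other shared region within 50 kb. The promoter rank was 67.9, 70.2 and 30.0 in scramble, 26.8, 48.1 and 61.4 in CPT1a knockout, 48.1, 44.5 and 39.8 under acetate and 45.3, 48.0 and 47.2 in KAT2a knockout. Scramble 3 lay far below scramble 1 and 2, and every group overlapped scramble. CPT1a knockout differed from scramble by -10.6 percentile points (exact permutation p = 0.5, limma adjusted p = 0.596) and acetate by -11.9 (p = 0.4, limma adjusted p = 0.593). The limma intervals of these differences ran from -0.95 to 0.38 and from -0.97 to 0.36 on the normal score scale. The strongest peak of Jag1 reached to both sides of the TSS, and its summit lay before the TSS, at -728 or -735 bp, in CPT1a knockout 1 and 2 and in KAT2a knockout 1 and past it elsewhere. Acetate summits lay 1060 bp further along the gene than those of CPT1a knockout, without overlap (exact permutation p = 0.1, adjusted p = 0.485, where 20.6% of all genes tested did not overlap). The margin was small, from 575 bp in CPT1a knockout 3 to 576 bp in acetate 2. By summit position all 3 members lay apart from scramble in CPT1a knockout (66.2% of all genes), 1 did in KAT2a knockout (55.2%) and 1 with acetate (49.9%), Ptpn13 in both.

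**Figure D3:**
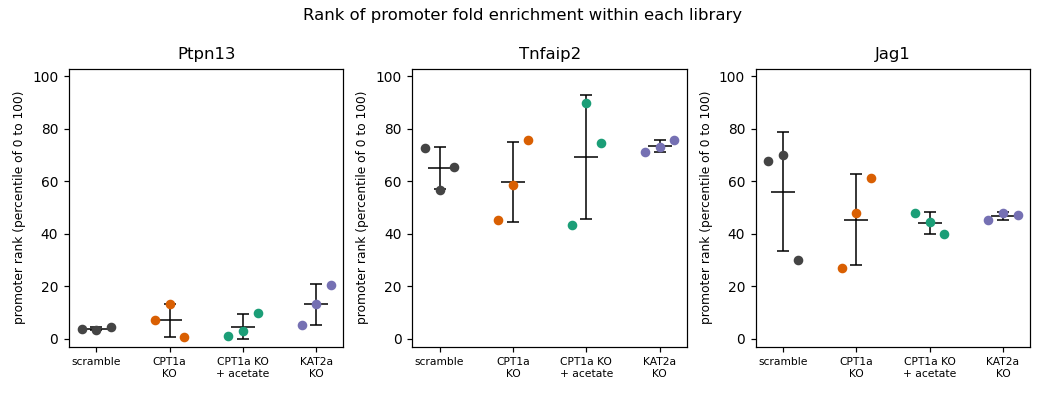
Promoter rank (percentile of fold enrichment within a library, 0 to 100) of Ptpn13, Tnfaip2 and Jag1, with 3 libraries per group as points and the mean ± SD in black. For Ptpn13 the 3 KAT2a knockout points (5.37 to 20.7) lie above the 3 scramble points (3.55 to 4.52), and no other group separates from scramble.

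The 3 members called in every library, a call that did not depend on the groups, gave 1 separation of ranks in the 5 comparisons. In CPT1a knockout against scramble 0 of 3 had ranks without overlap, where 30.9% of the 10777 genes tested did. In KAT2a knockout against scramble it was 1 of 3 (Ptpn13) against 29.3%, in acetate against CPT1a knockout 0 of 3 against 14.2%, and in acetate against scramble 0 of 3 against 31.9%. Scramble against the other 9 libraries gave 0 of 3 against 12.6%. These comparisons share libraries and are not independent of each other. By limma no member was called in any comparison, adjusted (0.370 to 0.994) or unadjusted (0 of 3 under 0.05 in each), whereas it called 9.84% of genes in CPT1a knockout, 3.68% in KAT2a knockout and 5.33% with acetate against scramble and 12.9% for scramble against the other 9. Between acetate and CPT1a knockout limma called 0 of 10777 genes, with 1005 at an unadjusted p under 0.05, while ranges did not overlap for the 14.2% given above. None of the alternatives run brought a limma call for any of the 3.

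**Figure D4:**
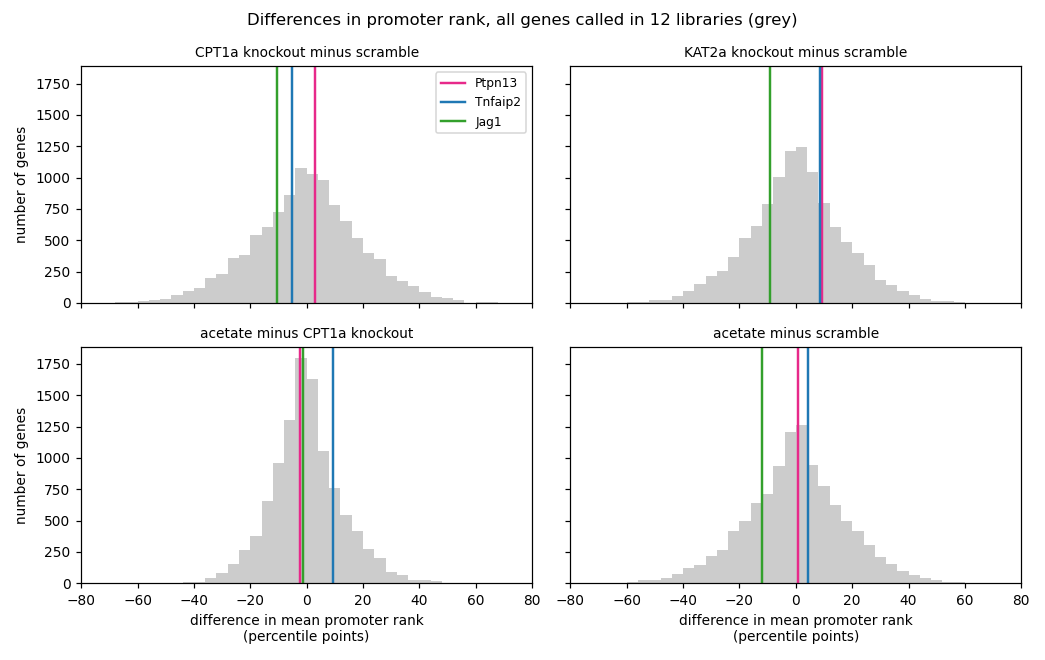
Number of genes (grey bars of 4 percentile points) by difference in mean promoter rank over the 10777 genes called in all 12 libraries, in 4 comparisons, with Ptpn13, Tnfaip2 and Jag1 as colored lines. The lines lie between -11.9 and 9.51 percentile points, inside the central mass of each distribution.

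Peak coverage over the whole loci gave differences that turned on the scaling. Within the gene and 50 kb on either side, Mmp9 held 83.5 ± 4.16 bp of peak per Mb of peak in the library in scramble, 136 ± 12.9 in CPT1a knockout, 130 ± 11.3 under acetate and 112 ± 6.52 in KAT2a knockout (SD, n = 3). Scramble lay below all 9 others, by 42.5 bp per Mb (exact permutation test, two-sided, p = 0.00455, adjusted p = 0.0259). In every library most of this length lay at the Zfp335 promoter, which held the only peak in scramble 2 and 3 and in CPT1a knockout 3. The covered lengths themselves were 3039 to 3791 bp in scramble and 2422 to 4614 bp in the others, so they overlapped. Jag1 held 119 ± 3.15 bp per Mb in scramble and 150 to 172 in the group means of the others, again without overlap (exact permutation test, adjusted p = 0.0595), but its covered length was higher in scramble, by 146 bp. Tnfaip2 was at 380 to 418 bp per Mb in scramble and at group means of 450 to 474 elsewhere, and Icam1, with no peak at its promoter or in its gene body, was at 381 ± 5.65 in scramble and at group means of 369 to 370 elsewhere. Ptpn13 was at 105 ± 9.22 in scramble, 98.7 ± 11.2 in CPT1a knockout, 88.9 ± 8.33 under acetate and 119 ± 3.71 in KAT2a knockout. It lay without overlap below scramble with acetate and above scramble in KAT2a knockout. Of the 5 loci, 2 lay without overlap in CPT1a knockout (Mmp9 and Jag1, where 35% of loci tested did), 4 in KAT2a knockout (43%), 4 with acetate (41.4%) and 0 between acetate and CPT1a knockout (11.7%). Scramble lay apart from the other 9 at 2 loci (20.1%). The scramble libraries covered 34.5 to 46.2 Mb in all and the others 19.5 to 35.4 Mb.

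The regions of the 5 loci, 38 in all with 12 present in every library (31.4% of the 38586 regions of the series were), were compared by rank in the same way. Without overlap were 3 of 12 in CPT1a knockout against scramble (32.9% of all shared regions), 4 of 12 in KAT2a knockout (29.7%) and 4 of 12 with acetate (32.3%). Acetate against CPT1a knockout gave 2 of 12 (14.3%), and scramble against the other 9 gave 2 of 12 (13.8%), the regions of Icam5 and Zfp335. Of the regions not shared by all libraries, 13 were called in scramble libraries alone and 8 in other libraries alone, but none was called in all 3 scramble libraries and in no other. The shares of such regions over the whole series were not computed.

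Other NF-κB target genes were read as a list of 46, of which 34 had a promoter peak in all 12 libraries (49.5% of all genes did) and 9 had none in any, as at Icam1. Of these 9, most encode cytokines or chemokines (Cxcl2, Ccl2, Ccl5, Ccl20, Il1b, Tnf and Csf2), and the others were the survival gene Bcl2a1d and the endothelial selectin Sele. Il6 (1 library), Cxcl10 (2) and Il1a (11) lay between. In CPT1a knockout against scramble limma called 0 genes higher and 5 lower (of all genes 4.65% and 5.19%), and 2 of the 34 were higher at an unadjusted p under 0.05. The median difference over the 34 was -4.22 percentile points, beside 0.22 for all genes tested. By ranges, 1 gene lay higher and 7 lower without overlap (15.5% and 15.3% of all genes), the higher one being Cyld, a deubiquitinase that restrains the pathway, at 20.7 percentile points (limma adjusted p = 0.205).

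The genes that fell in CPT1a knockout were Tnfaip3, Tnip1, Rel and Ptgs2, named for the size of their difference, and Vcam1, named after its values were seen. Tnfaip3 (A20) and Tnip1 restrain NF-κB signaling and Rel encodes c-Rel, while Ptgs2 is cyclooxygenase 2 and Vcam1 an adhesion receptor. The promoter rank of Tnfaip3 was 82.4, 78.9 and 91.7 in scramble, 45.3, 30.8 and 23.0 in CPT1a knockout, 48.1, 41.6 and 19.1 under acetate and 54.5, 72.8 and 24.6 in KAT2a knockout. It fell by 51.3 percentile points in CPT1a knockout (limma adjusted p = 0.0184), a call lost without CPT1a knockout 3 or scramble 3 (adjusted p up to 0.0732). Tnip1 ranked 48.7, 57.5 and 43.7 in scramble, 11.3, 10.3 and 16.6 in CPT1a knockout, 43.4, 37.2 and 29.8 under acetate and 23.3, 8.85 and 22.5 in KAT2a knockout. Its limma call in CPT1a knockout (-37.3 percentile points, adjusted p = 0.0146) held whichever library was left out.

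Rel ranked 80.9, 84.1 and 82.9 in scramble and 37.2 to 62.5 in the other 9 libraries, without overlap. It fell by 32.9 percentile points in CPT1a knockout (limma adjusted p = 0.0238), by 33.8 with acetate (0.0301) and by 31.9 in KAT2a knockout (0.0452), and these single comparisons were lost without any 1 of 5, 6 and 6 of their 6 libraries. Scramble against the other 9, with 32.9 percentile points, held for Rel whichever library was left out (limma adjusted p = 0.00796, 0.0414 at most). Ptgs2 (-50.3 percentile points, limma adjusted p = 0.0233) lost its call in CPT1a knockout with the GC trend removed (0.0634), and Vcam1 (-23.5, adjusted p = 0.0452) did so too (0.244), and leaving out 1 library ended these calls in 4 and 6 of 6 cases (adjusted p up to 0.0904 and 0.167).

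**Figure D5:**
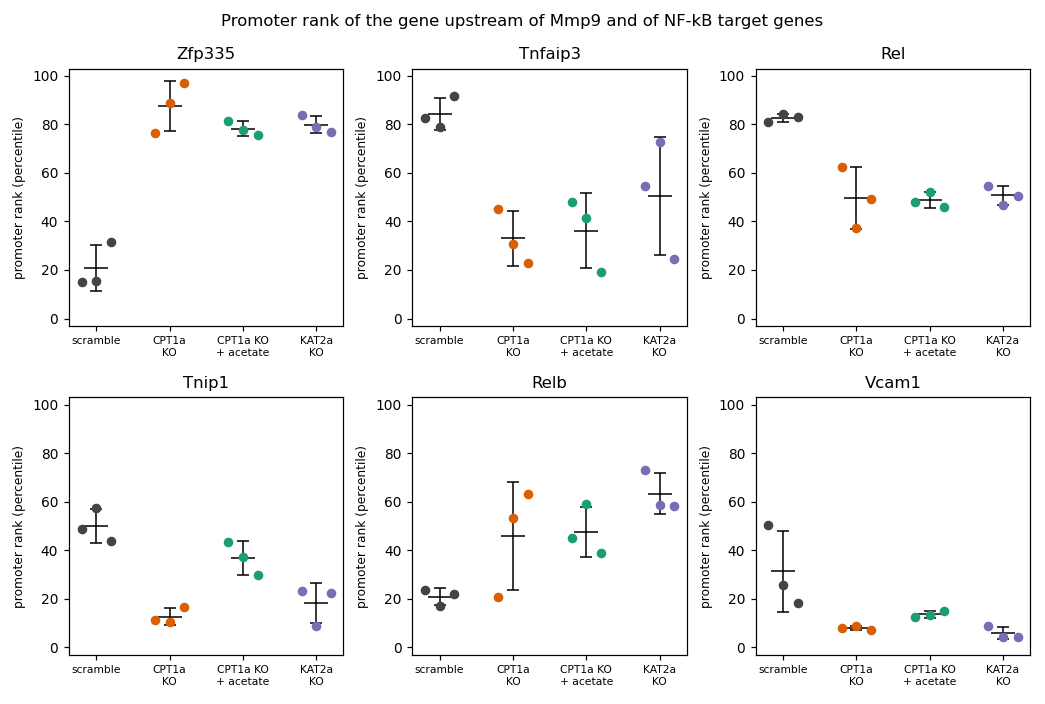
Promoter rank (percentile, 0 to 100) of Zfp335, the neighbor of Mmp9, and of the NF-κB target genes Tnfaip3, Rel, Tnip1, Relb and Vcam1, with 3 libraries per group as points and the mean ± SD in black. Zfp335 is at 15.1 to 31.6 in scramble and above 75 in every other library, and Rel is at 80.9 to 84.1 in scramble and at 62.5 or below in every other library.

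In KAT2a knockout limma called 1 gene of the list higher and 2 lower (1.57% and 2.12% of all genes). Relb, the partner of the non-canonical pathway, rose by 42.5 percentile points (limma adjusted p = 0.0465), and Rel and Vcam1 fell (adjusted p = 0.0452 and 0.0381). With the GC trend removed Relb and Vcam1 were not called (0.0642 and 0.162), and each of the 3 calls was lost without any 1 of the 6 libraries. The Relb rank was 23.6, 16.9 and 22.0 in scramble, 20.9, 53.3 and 63.4 in CPT1a knockout, 45.3, 59.1 and 38.8 under acetate and 73.2, 58.7 and 58.2 in KAT2a knockout. Tnfaip3 and Tnip1 differed from scramble without overlap in KAT2a knockout, by -33.7 and -31.7 percentile points (limma adjusted p = 0.103 and 0.0523). Nfkbia (IκBα), the classical feedback inhibitor, ranked 27.7 to 56.9 in scramble and 48.6 to 86.1 in the other 9. Against KAT2a knockout and acetate its scramble ranks did not overlap, with differences of 31.5 and 39.3 percentile points (limma adjusted p = 0.143 and 0.0670).

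With acetate against scramble limma called 0 genes higher, with 2 at an unadjusted p under 0.05, and 2 lower (1.77% and 3.55% of all genes), Tnfaip3 and Rel. Tnfaip3 lost this call without scramble 1, scramble 3 or any acetate library (adjusted p up to 0.114). Between acetate and CPT1a knockout limma called 0 of the 34, with 3 higher and 0 lower at an unadjusted p under 0.05. The ranges of 5 list genes lay higher and that of 1 lower with acetate (5.47% and 8.69% of all genes), and the 4 with the largest differences upward were Myc (36.6 percentile points), Cd44 (25.0), Tnip1 (24.1) and Ier3 (21.2), against Nfkbiz (-18.1). Their limma adjusted p lay between 0.396 and 0.714.

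Scramble against the other 9 libraries, which shares its libraries with the comparisons above, gave 5 list genes higher in scramble and 2 lower by limma (7.15% and 5.7% of all genes). Those higher were the 5 genes that fell in CPT1a knockout, and those lower were Nfkbia and Relb (-34.4 and -31.4 percentile points, limma adjusted p = 0.0305 and 0.0325), which together with Vcam1 were chosen after their values were seen. Nfkbia and Relb lost the call with the GC trend removed (0.127 and 0.0749), as did Ptgs2 and Vcam1 (0.0834 and 0.169). Leaving out 1 scramble library ended the call of Tnfaip3 (without scramble 3, 0.0657), of Tnip1 (without any, up to 0.0847), of Ptgs2 (without 1 or 3, up to 0.138), of Vcam1 (without 1, 0.136), of Nfkbia (without 2 or 3, up to 0.148) and of Relb (without any, and also without acetate 2 or KAT2a knockout 1, up to 0.109).

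The relatives of the 5 genes gave a mixed picture, and the genes named here were chosen after their values were seen. The counts called in all libraries stand beside 49.5% of all genes. Of 7 adhesion receptors, 5 had a promoter peak in all libraries and Icam2, like Icam1, had none. All 5 ranked lower in CPT1a knockout than in scramble without overlap (15.3% of all genes), and limma called 2 of them, Vcam1 and Cd47. Cd47, a surface ligand that restrains phagocytosis, fell by 45.8 percentile points in CPT1a knockout (limma adjusted p = 0.000578, at most 0.00519 without 1 library). Of the same 5 receptors, 4 ranked lower than scramble without overlap in KAT2a knockout and 4 with acetate (15% and 17% of all genes). Limma called Cd47 lower there too (-1.22 and -1.32 in normal scores), but not with the GC trend removed (adjusted p = 0.139 and 0.115).

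All 13 non-receptor tyrosine phosphatases related to Ptpn13 had a promoter peak in all 12 libraries. In CPT1a knockout against scramble limma called 1 higher and 2 lower (4.65% and 5.19% of all genes). Ptpn1, which acts on the insulin receptor, rose by 46.0 percentile points (limma adjusted p = 0.0290, 0.0615 with the GC trend removed). Ptpn4 fell by 36.1 and Ptpn21 by 43.1 (limma adjusted p = 0.0214 and 0.0430, and 0.0689 for Ptpn21 with the GC trend removed). These calls were lost without any 1 of 4, 4 and 5 of the 6 libraries in the order given, scramble 1 and 3 among them each time (adjusted p up to 0.102, 0.0607 and 0.129). In KAT2a knockout limma called 1 higher, Ptpn1 (1.73 in normal scores), and 1 lower, Ptpn4 (-1.20), beside 1.57% and 2.12% of all genes. With acetate against scramble it called 0 higher and 1 lower, Ptpn4 (-1.46), beside 1.77% and 3.55%. Of 11 Notch genes 6 were called in all libraries, and 1 of them, the receptor Notch2, rose in CPT1a knockout by 38.6 percentile points (limma adjusted p = 0.0184, lost without CPT1a knockout 3 or scramble 1, at most 0.0729). Limma called Notch2 higher than scramble in KAT2a knockout as well (1.40 in normal scores). Of 12 matrix proteases and inhibitors 4 had a promoter peak in every library, and Mmp2, Mmp7, Mmp10, Mmp12, Mmp13 and the inhibitor Timp3 had none in any. Limma called 0 of these 4 in CPT1a knockout, with 0 at an unadjusted p under 0.05. Of the 6 TNF-induced proteins 4 were called throughout, and of these Tnfaip3 fell in CPT1a knockout.

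The targeted genes and Rela were read in the same way. The promoter rank of Kat2a was 6.03, 8.05 and 6.45 in scramble, 35.7, 43.5 and 60.9 in CPT1a knockout, 25.9, 28.4 and 29.5 under acetate and 42.3, 13.1 and 30.3 in KAT2a knockout. Kat2a thus ranked lowest in scramble, and a promoter peak is no measure of the knockout. Cpt1a ranked 13.7 to 40.1 in scramble and 29.3 to 59.0 in CPT1a knockout, and Rela 46.6 to 68.7 in scramble and 49.9 to 90.0 in the others.

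The genes whose normal scores followed each member most closely over the 12 libraries were Bag4, Lsm1 and Noct for Ptpn13 (Pearson r = 0.888, 0.888 and 0.866), Aspscr1, Tpst1 and Dap for Tnfaip2 (0.860, 0.856 and 0.841), and Nek6, Pigg and Top3a for Jag1 (0.869, 0.859 and 0.839). Bag4 and Lsm1 have the same values because the same peak lies in both promoter windows. The members did not follow each other, with r = 0.10 between Ptpn13 and Tnfaip2, -0.33 between Ptpn13 and Jag1 and 0.14 between Tnfaip2 and Jag1. These correlations describe 12 libraries that share groups and differ in depth.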

How the data were processed

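H3K9ac was mapped by ChIPmentation in 12 libraries, 3 per group, and the matching inputs were not analysed here. The authors deposited 1 peak list per library, with the fold enrichment over background and the −log10 p and −log10 q of each peak. The submitters' processing notes name Bowtie2, MACS2, SAMtools and deepTools with no versions, whereas the methods name BWA as the aligner, and coordinates are on mm10 (GRCm38). The antibody catalogue number also differs between labels and methods. A Drosophila spike-in build is named, but peak lists carry no such scaling, so ranks within a library were compared and a shift of the whole mark would not be seen.

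For each gene the strongest peak within 1 kb of any GENCODE vM21 TSS gave the promoter call and fold enrichment, and the summed width of such peaks gave the width. Fold enrichments were ranked as percentiles (0 to 100) over the 10777 genes called in all 12 libraries, or over the 12098 regions so called. Groups were compared by exact permutation of libraries (two-sided, Benjamini-Hochberg adjusted over all genes, 20 assignments for 3 against 3 and 220 for 3 against 9), by whether their ranges overlapped, and by limma on normal scores of the ranks at a false discovery rate of 0.05 with all 4 groups in 1 fit. Fold enrichment depends on depth, and the calling depth was recovered from fold enrichment and p. Python 3.11.15, numpy 2.4.6, scipy 1.17.1, pandas 2.3.3, R 4.3.3 and limma 3.58.1 were used, and the scripts were tested on simulated data.

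Members, lists and tests were chosen with earlier results of these data known. Named genes were the members, up to 4 NF-κB list genes per direction with the largest rank difference among those without overlap, the 3 genes most correlated with each member, genes with a TSS in a region within 50 kb of a member, Cpt1a, Kat2a and Rela. Vcam1, Cd47, Notch2, Ptpn1, Ptpn4 and Ptpn21, and Nfkbia and Relb for scramble against the other 9, were named outside this rule, after their values were seen. The summit distance, its alternative of the peak with the highest −log10 p, and the removal of the 2 libraries of lowest depth were added after the data were seen. The alternatives were −log10 p ranks, a GC correction, another window, flank or q threshold, joined peaks, a stricter overlap, ranks over all genes called in a library, equal calling depth, undivided coverage, each library left out and the replicate number as a block.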

Additional observations from a re-analysis of the deposited data

How the results depend on the processing

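Counts of members, loci or regions whose ranges did not overlap moved by more than 1.5 times in these cases, and the cause was not tested. With ranks on −log10 p, the member count went from 0 to 1 in CPT1a knockout against scramble and in acetate against CPT1a knockout (Tnfaip2 in both), and the region count from 3 to 5 and from 2 to 4. Without the 2 libraries of lowest depth it was 1 for the promoter rank (from 0) and 5 for the regions (from 3) in CPT1a knockout, 1 for width and 1 for locus coverage (each from 0) in acetate against CPT1a knockout, and 2 for the summit (from 1) in acetate against scramble. At equal calling depth the width count fell from 1 to 0 in CPT1a knockout and in acetate against scramble. Locus coverage then went from 4 to 2 in KAT2a knockout, from 0 to 1 in acetate against CPT1a knockout, from 4 to 1 in acetate against scramble and from 2 to 1 in scramble against the other 9, and the Mmp9 promoter call from 4 libraries to 1, or to 0 with the stricter overlap. A flank of 20 kb gave 1 locus in CPT1a knockout and 1 in scramble against the other 9.

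Undivided coverage gave 1 locus in KAT2a knockout, 2 with acetate against scramble and 1 in scramble against the other 9. It turned the direction of Jag1 (-261 bp in CPT1a knockout, -224 bp with acetate, 146 bp for scramble against the other 9), of Ptpn13 in KAT2a knockout (-390 bp) and of Tnfaip2 (-1010 bp in KAT2a knockout, -1743 bp with acetate). The scramble libraries covered 34.5 to 46.2 Mb with peaks and the others 19.5 to 35.4 Mb, the length by which the main values are divided.

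The limma calls over all genes went from 1060 to 699 in CPT1a knockout and from 574 to 358 with acetate against scramble when the GC trend was removed. With −log10 p they were 3524 in CPT1a knockout, 2452 in KAT2a knockout (from 397), 2698 with acetate against scramble and 4000 for scramble against the other 9 (from 1385). A 500 bp window gave 2 in acetate against CPT1a knockout (from 0).

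Replicate numbers did not pair the libraries. Deviations from the group mean correlated at -0.063 to 0.0595 between same-numbered libraries (18 pairs, none above 0.1), and 2 of 12 libraries correlated best with their own number. With the replicate block limma called 883, 284, 0, 431 and 1235 genes in CPT1a knockout, KAT2a knockout, acetate against CPT1a knockout, acetate against scramble, and scramble against the other 9. For loci, regions and summits the pairing counted items at the smallest paired sign-flip p of 0.25, whether or not ranges overlapped. By this looser rule the count was 5 loci (from 2) and 5 regions (from 3) in CPT1a knockout. In KAT2a knockout it was 2 summits (from 1). The share over all features at this rule was not computed.

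Leaving out 1 library at a time gave, in the same order of comparisons, 0 to 1, 1 to 2, 0 to 0, 0 to 1 and 0 to 1 members by promoter rank, 1 to 2, 0 to 1, 0 to 1, 1 to 2 and 0 to 1 by width, and 3 to 3, 1 to 3, 1 to 2, 1 to 2 and 1 to 1 by summit. It gave 2 to 4, 4 to 5, 0 to 1, 4 to 5 and 2 to 3 loci by coverage and 3 to 6, 4 to 7, 2 to 4, 4 to 5 and 2 to 3 regions. Limma then called 407 to 837, 36 to 224, 0 to 9, 124 to 379 and 423 to 1500 genes, and no member. With fewer libraries ranges overlap less often by construction. Of the single values under the other alternatives, 304 kept direction and call, 42 lost the call and the 6 above reversed. Depth limits every absent call, since a peak below the q threshold is not listed.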
